A study of Homo sapiens with 8 samples.

Results

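The kinesin genes were examined in 8 RNA libraries made from HUES8 cells, a widely used human embryonic stem line, at stage 5 of a stepwise differentiation in suspension that yields pancreatic islet cells. All protein-coding genes named KIF or KIFC with a number and at most 1 letter were taken, which gave 42 genes of the 58233 in the deposited table. By textbook role they were divided into 14 mitotic kinesins, 17 transport kinesins and 11 others. Buds, small outgrowths shaken off the spheroids and separated by filtering, came from flasks 264, 270 and 274 (n = 3), and bulks, the spheroids left behind, came from flasks 252, 261, 264, 270 and 274 (n = 5). Both groups carry the same unmodified line through the same protocol, and the labels name no further treatment or genotype. All flasks hold 1 cell line, so p-values measure the spread between its flasks only.

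Kinesins are motor proteins that use ATP to walk along microtubules or to take them apart. Mitotic kinesins build the spindle, move chromosomes and help to divide the cell, and their transcripts are made mostly in dividing cells. Transport kinesins carry vesicles, organelles and protein complexes, and endocrine cells, like neurons, depend on them to bring secretory granules from the cell centre to the periphery. In pancreatic beta cells the conventional kinesin KIF5B is known to carry insulin granules.

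Libraries held 6083973 to 12508039 counts. The bulk of flask 264 stood apart from the other bulks on the second principal component, so values without it are given wherever leaving it out changed the call of a kinesin, and for some further genes. Of 16641 genes that passed the expression filter, 47.2% changed between buds and bulks (edgeR quasi-likelihood test, Benjamini-Hochberg adjusted p below 0.05), 23.4% being higher and 23.8% lower in buds. The median log2 fold change of all genes tested was -0.02. Of the kinesins, 39 passed the filter, and 28 of these 39 changed, 12 being higher and 16 lower in buds.

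The mitotic kinesins were lower in buds and most transport kinesins were higher. All 12 mitotic kinesins that passed the filter fell, by a log2 fold of 1.57 to 3.05, and in each of them every bud lay below every bulk. Of the 17 transport kinesins, all of which passed the filter, 11 rose and 2 fell. Without the bulk of flask 264, 12 mitotic kinesins fell, and 10 transport kinesins rose and 3 fell. The median log2 fold change was -2.46 over the tested mitotic kinesins and 1.04 over the transport kinesins. The 10 tested members of the remaining group had a median of 0.01, with 1 higher and 2 lower. KIF2A, which works on spindles and in neurites, was placed in this group and did not pass (0.25 ± 0.16, edgeR adjusted p = 0.236). Across all genes tested, every bud lay below every bulk in 23.7% and above every bulk in 23.5%. In a bulk measurement of this kind, fewer cells of a type and less RNA per cell cannot be told apart.

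**Figure D1:**
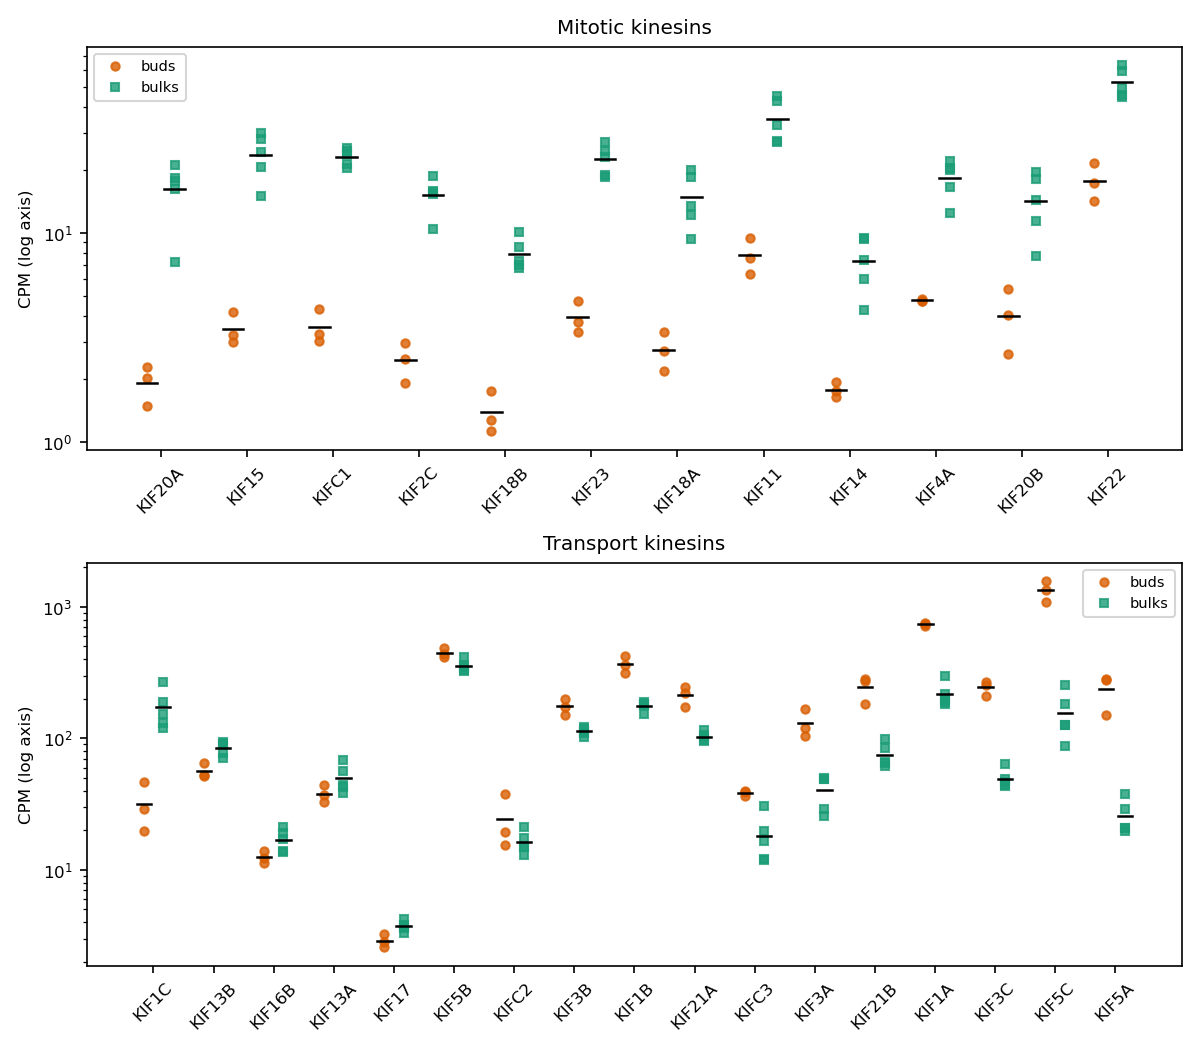
TMM-scaled CPM of the 12 tested mitotic kinesins (top) and 17 transport kinesins (bottom) on log axes, 1 point per library, with buds as circles left of bulks as squares; short lines are group means. For every mitotic kinesin the 3 buds lie below the 5 bulks, whereas 11 transport kinesins have all buds above all bulks.

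Among the motors that set up the spindle, KIF11, a plus-end motor that slides opposed microtubules apart to keep the spindle bipolar, had the highest counts in buds after KIF22. KIF11 (chromosome 10, 92574105 to 92655395, GRCh38) stood at 7.55, 6.37 and 9.47 CPM (counts scaled to library size, TMM factors included) in the buds of flasks 264, 270 and 274, against 45.1, 27.2, 27.7, 33.0 and 42.9 CPM in the bulks of flasks 252, 261, 264, 270 and 274. Its log2 fold change was -2.17 ± 0.24 (SE; edgeR adjusted p = 5.55e-05). KIF15, which can share the work of KIF11, stood at 3.24, 3.00 and 4.17 CPM in buds, against 30, 20.6, 15, 24.5 and 28.3 CPM in bulks taken in the same flask order. The groups of KIF15 did not overlap, and the log2 fold change was -2.76 ± 0.27 (edgeR adjusted p = 3.1e-05). KIFC1, a minus-end motor that focuses the spindle poles, was the most even mitotic kinesin among bulks. It stood at 4.31, 3.27 and 3.05 CPM in buds, against 23.9, 21.4, 20.4, 25.5 and 24.7 CPM in bulks, and the log2 fold change was -2.72 ± 0.19 (edgeR adjusted p = 1.16e-05).

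Motors that act on kinetochore and astral microtubules fell by a similar amount. KIF2C, which takes microtubules apart at kinetochores and so corrects wrong attachments, averaged 2.45 ± 0.529 CPM in buds and 15.2 ± 3.03 CPM in bulks (mean ± SD over 3 buds and 5 bulks), and its log2 fold change was -2.64 ± 0.26 (edgeR adjusted p = 3.06e-05). KIF18A, which damps chromosome movement at the metaphase plate, averaged 2.76 ± 0.595 CPM in buds and 14.8 ± 4.48 CPM in bulks, and its log2 fold change was -2.43 ± 0.30 (edgeR adjusted p = 0.000115). KIF18B, which limits the length of astral microtubules, averaged 1.38 ± 0.329 CPM in buds and 7.94 ± 1.38 CPM in bulks, with -2.54 ± 0.27 (edgeR adjusted p = 5.3e-05). KIF2B, a relative of KIF2C, had no counts in any library, which allows up to 0.494 CPM in the shallowest library when 3 counts are taken as the limit.

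The chromokinesins, which bind chromosome arms and push them outward, showed smaller differences. KIF4A had nearly the same value in the 3 buds, 4.72, 4.73 and 4.82 CPM, against 20.4, 16.6, 12.5, 20.1 and 22.1 CPM in bulks. Its log2 fold change was -1.95 ± 0.22 (edgeR adjusted p = 6.28e-05). Its intronless copy KIF4B had at most 3 counts in any library and was not tested, and reads shared by the pair may have been divided between them. KIF22 was the most abundant mitotic kinesin by counts in buds and in bulks and had the smallest difference among the 12, at 17.4, 21.6 and 14.2 CPM in buds, against 44.9, 63.5, 59.8, 49.4 and 45.6 CPM in bulks. The log2 fold change of KIF22 was -1.57 ± 0.19 (edgeR adjusted p = 8.83e-05).

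KIF20A had the largest fall of any kinesin. This motor brings the chromosomal passenger complex to the midzone of the dividing cell. It stood at 1.48, 2.27 and 2.01 CPM in buds, against 16.3, 18.3, 7.25, 21.2 and 17.7 CPM in bulks, and its log2 fold change was -3.05 ± 0.36 (edgeR adjusted p = 8.47e-05). The bulk of flask 264 was the lowest bulk but still lay above every bud, and without it the log2 fold change was -3.23. KIF23, the motor of the centralspindlin complex that bundles midzone microtubules, averaged 3.95 ± 0.708 CPM in buds and 22.5 ± 3.77 CPM in bulks (-2.50 ± 0.21, edgeR adjusted p = 1.94e-05). KIF14 and KIF20B are both needed to complete cytokinesis. KIF14 stood at 1.75, 1.64 and 1.93 CPM in buds, against 9.39, 7.44, 4.28, 6.04 and 9.5 CPM in bulks (-2.04 ± 0.32, edgeR adjusted p = 0.00044). KIF20B stood at 4.05, 2.64 and 5.38 CPM in buds, against 19.6, 11.4, 7.75, 14.3 and 18.1 CPM in bulks (-1.82 ± 0.34, edgeR adjusted p = 0.00147). In neither gene did the groups overlap. For KIF20B the difference was smaller in flask 264, where the bud lay 0.94 below its own bulk on the log2 scale, than in flasks 270 and 274, where it lay 2.44 and 1.75 below. The lowest of the 5 bulks was that of flask 264 for 10 of the 12 fallen mitotic kinesins, and the median log2 difference between bud and bulk of the same flask over the 12 was -1.84 in flask 264, -2.57 in flask 270 and -2.64 in flask 274.

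**Figure D2:**
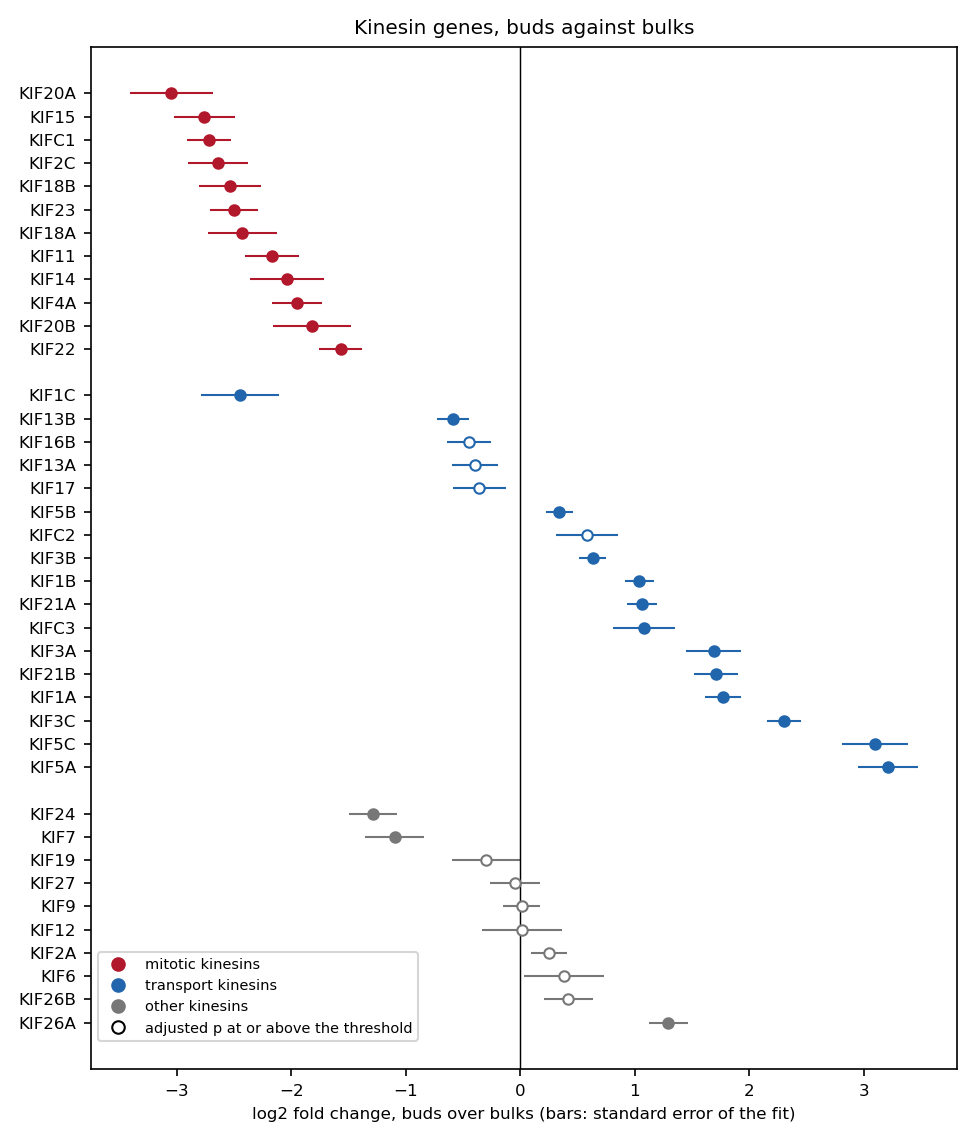
Log2 fold change of buds over bulks for the 39 tested kinesins, ordered within the mitotic (top), transport (middle) and remaining (bottom) groups; bars are standard errors of the edgeR fit and open circles mark genes whose adjusted p was 0.05 or higher. The mitotic kinesins all lie left of 0, while transport kinesins range from -2.45 for KIF1C to 3.21 for KIF5A.

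Partners of the mitotic kinesins fell with them, with RACGAP1 as the exception. Of 18 listed genes for spindle, passenger complex and midzone proteins, 17 fell and none rose, with a median log2 fold change of -2.01. Over all genes tested, 23.8% were lower and 23.4% higher in buds. ASPM, a spindle pole protein, fell by 2.71 ± 0.25 (edgeR adjusted p = 2.62e-05), and TPX2, which activates the kinase AURKA on the spindle, fell by 2.64 ± 0.20 (edgeR adjusted p = 1.28e-05). CENPE, a kinetochore kinesin whose symbol lies outside the naming rule, fell by 1.61 ± 0.24 (edgeR adjusted p = 0.000375). RACGAP1, the partner of KIF23 in centralspindlin, averaged 47.3 ± 7.51 CPM in buds and 40.3 ± 6.63 CPM in bulks, and its log2 fold change was 0.23 ± 0.17 (edgeR adjusted p = 0.287). The citron kinase gene CIT, whose protein works with KIF14, had -0.51 ± 0.19 (edgeR adjusted p = 0.0418), a call lost in 7 of 17 alternatives, with an edgeR adjusted p of 0.0506 to 0.179 without the bulk of flask 252, 270 or 274 or without bud 270 or 274. RACGAP1, CIT and CENPE were singled out after their values were seen. All 8 proliferation markers fell in the same libraries, their summed level being 122 to 144 CPM in buds and 523 to 697 CPM in bulks, and none was at 0. How far the mitotic kinesins moved with the share of dividing cells was not tested.

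Promoters of the mitotic kinesins shared short sequences that most of the transport kinesins lacked. RefSeq windows of 300 bases (250 before and 50 after the annotated start, GRCh38.p14) were at hand for 34 of the 42 genes, and some genes had more than 1 window. Windows were searched on both strands for the CHR, a cell cycle element bound by repressor and activator complexes that set G2 and M phase transcription, in its usual form TTTGAA and in the forms TTCGAA and TTTAAA, and for CCAAT, the core of the NF-Y site that often lies nearby. TTCGAA and TTTAAA read the same on both strands. TTTGAA was found for 10 of the 14 mitotic kinesins and for 1 of 12 transport kinesins, KIF5B, against 15.2% of all 35116 windows. Any of the CHR forms was found for 13 of the 14 mitotic kinesins, including all 12 that fell, for 2 of 12 transport kinesins, and in 25.1% of all windows. Kinesin counts here are of genes with a match in any of their windows, whereas the percentages are of single windows. CCAAT was found for 11 of 14 mitotic and 4 of 12 transport kinesins, against 34.6% of all windows. These matches are a description of the letters only, and base composition, which differs between promoters, was not matched. The motifs were chosen with the fall of these genes known.

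The following stretches run from 100 bases before to 30 bases after the annotated start of 5 mitotic kinesins that fell and 2 transport kinesins that rose, to show where these elements lie. Capitals mark CCAAT or its reverse complement ATTGG and the CHR form TTTGAA, its reverse complement TTCAAA or TTCGAA.
KIF11, chr10:92593030-92593159, plus strand: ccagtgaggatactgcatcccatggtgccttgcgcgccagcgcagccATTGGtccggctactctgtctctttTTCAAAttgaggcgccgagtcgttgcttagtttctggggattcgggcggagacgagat
KIF18A, chr11:28108127-28108256, minus strand: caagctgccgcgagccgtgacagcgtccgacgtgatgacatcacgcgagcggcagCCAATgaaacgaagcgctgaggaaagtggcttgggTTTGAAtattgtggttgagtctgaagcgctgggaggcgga
KIF23, chr15:69414249-69414378, plus strand: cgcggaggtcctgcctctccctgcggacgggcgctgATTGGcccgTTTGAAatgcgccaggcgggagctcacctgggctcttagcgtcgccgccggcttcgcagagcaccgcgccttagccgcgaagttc
KIF4A, chrX:70290004-70290133, plus strand: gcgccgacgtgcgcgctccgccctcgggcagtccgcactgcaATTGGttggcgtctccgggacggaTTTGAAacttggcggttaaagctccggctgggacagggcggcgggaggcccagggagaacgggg
KIF22, chr16:29790651-29790780, plus strand: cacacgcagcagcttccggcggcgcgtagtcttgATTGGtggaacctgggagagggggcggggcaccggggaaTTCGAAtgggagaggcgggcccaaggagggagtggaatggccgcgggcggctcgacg
KIF5C, chr2:148875127-148875256, plus strand: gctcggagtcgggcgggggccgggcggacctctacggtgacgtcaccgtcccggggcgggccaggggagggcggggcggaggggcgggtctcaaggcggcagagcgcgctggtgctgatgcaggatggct
KIF3C, chr2:25982468-25982597, minus strand: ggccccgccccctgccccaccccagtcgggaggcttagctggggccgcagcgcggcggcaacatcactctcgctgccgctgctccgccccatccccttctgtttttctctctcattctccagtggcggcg

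In the 5 mitotic stretches the CCAAT element lies before the CHR form in the direction of transcription, and the closest pair is that of KIF23. Neither stretch of the transport kinesins holds either element, although the full window of KIF5C has a CCAAT match farther from its start.

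**Figure D3:**
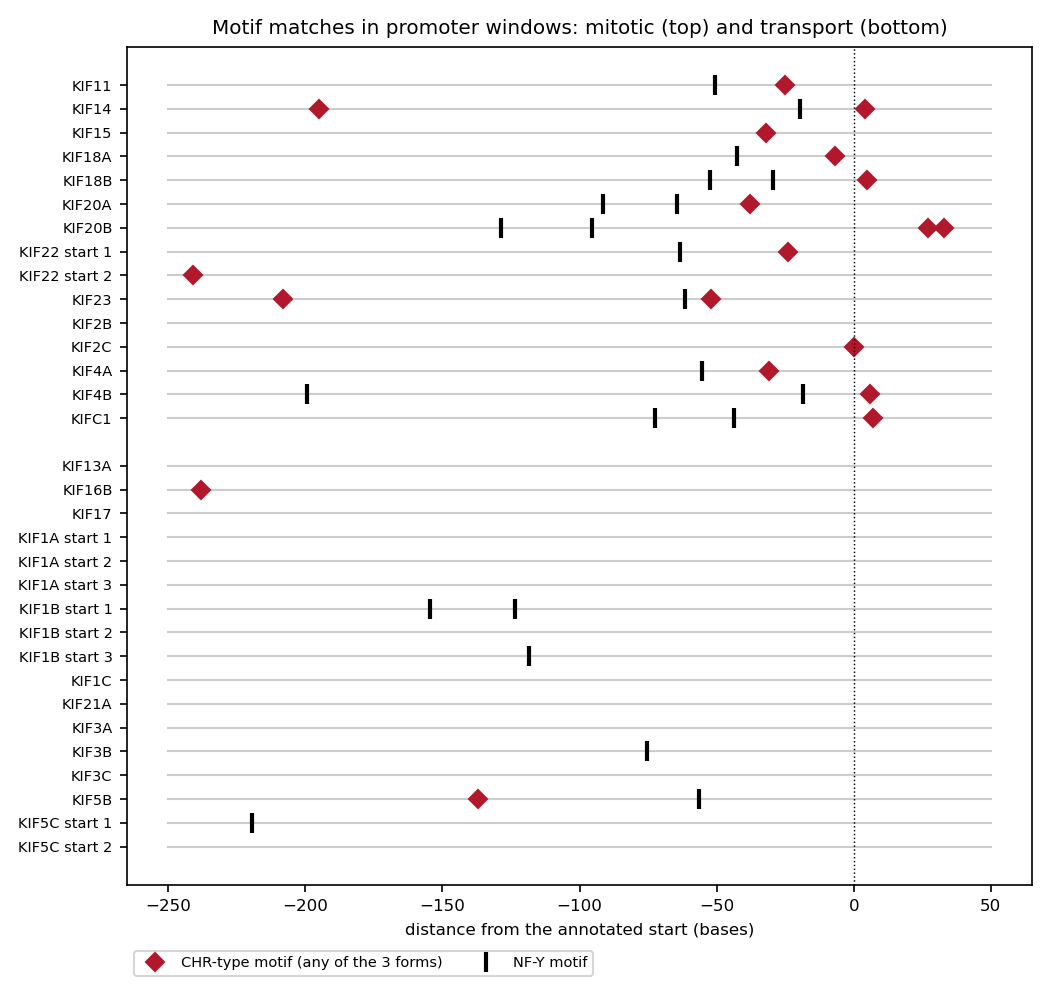
Position of CHR-type motifs (red diamonds, any of the 3 forms) and NF-Y motifs (black ticks) in the promoter windows of mitotic (top) and transport (bottom) kinesins; the x axis is the distance in bases from the annotated start, and grey lines span each window of 300 bases. Of the mitotic kinesins, 13 of 14 have a diamond, against 2 of 12 transport kinesins.

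The kinesin-1 heavy chains, conventional motors that carry vesicles and mitochondria, gave the largest rises. KIF5C (chromosome 2, 148875227 to 149026759, GRCh38), enriched in neurons, stood at 1083, 1353 and 1566 CPM in the buds of flasks 264, 270 and 274, against 127, 126, 87.5, 254 and 183 CPM in the bulks of flasks 252, 261, 264, 270 and 274. The lowest bud lay far above the highest bulk, and the log2 fold change was 3.10 ± 0.29 (edgeR adjusted p = 2.81e-05). KIF5A, the other neuronal heavy chain (chromosome 12, 57546026 to 57586633), stood at 151, 279 and 282 CPM in buds, against 20.8, 20.7, 19.9, 37.5 and 29.0 CPM in bulks, and its log2 fold change was 3.21 ± 0.26 (edgeR adjusted p = 1.61e-05). The bud of flask 264 was the lowest bud for KIF5A and KIF5C. KIF5B, the heavy chain found in most cells, differed far less, at 439.6, 417 and 491 CPM in buds, against 416, 330.4, 325, 350.2 and 359 CPM in bulks. Its log2 fold change was 0.34 ± 0.12 (edgeR adjusted p = 0.0405), a call that was lost in 8 of 17 alternatives. These included 6 of the 8 fits that left out 1 library (bulks 261, 264, 270 and 274, buds 264 and 274), where the edgeR adjusted p was 0.0663 to 0.150.

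The make-up of the KIF5 genes, compared as CPM per kb of exon, therefore differed between the groups. KIF5C made up 27.2, 30.3 and 30.7% of the summed KIF5 level in buds, against 5.01, 6.16, 4.42, 10.9 and 7.98% in bulks. The share of KIF5B lay at 52.8 to 62.5% in buds, against 84.8 to 92.9% in bulks. The union of annotated KIF5C exons, 33151 bases, is far longer than its longest transcript of 7760 bases. Per kb of the longest transcript, KIF5C made up 59.3 ± 1.21% of the KIF5 level in buds and 23.0 ± 6.86% in bulks, so that by this length it was the leading KIF5 gene in buds, while KIF5B led in bulks by both lengths.

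**Figure D4:**
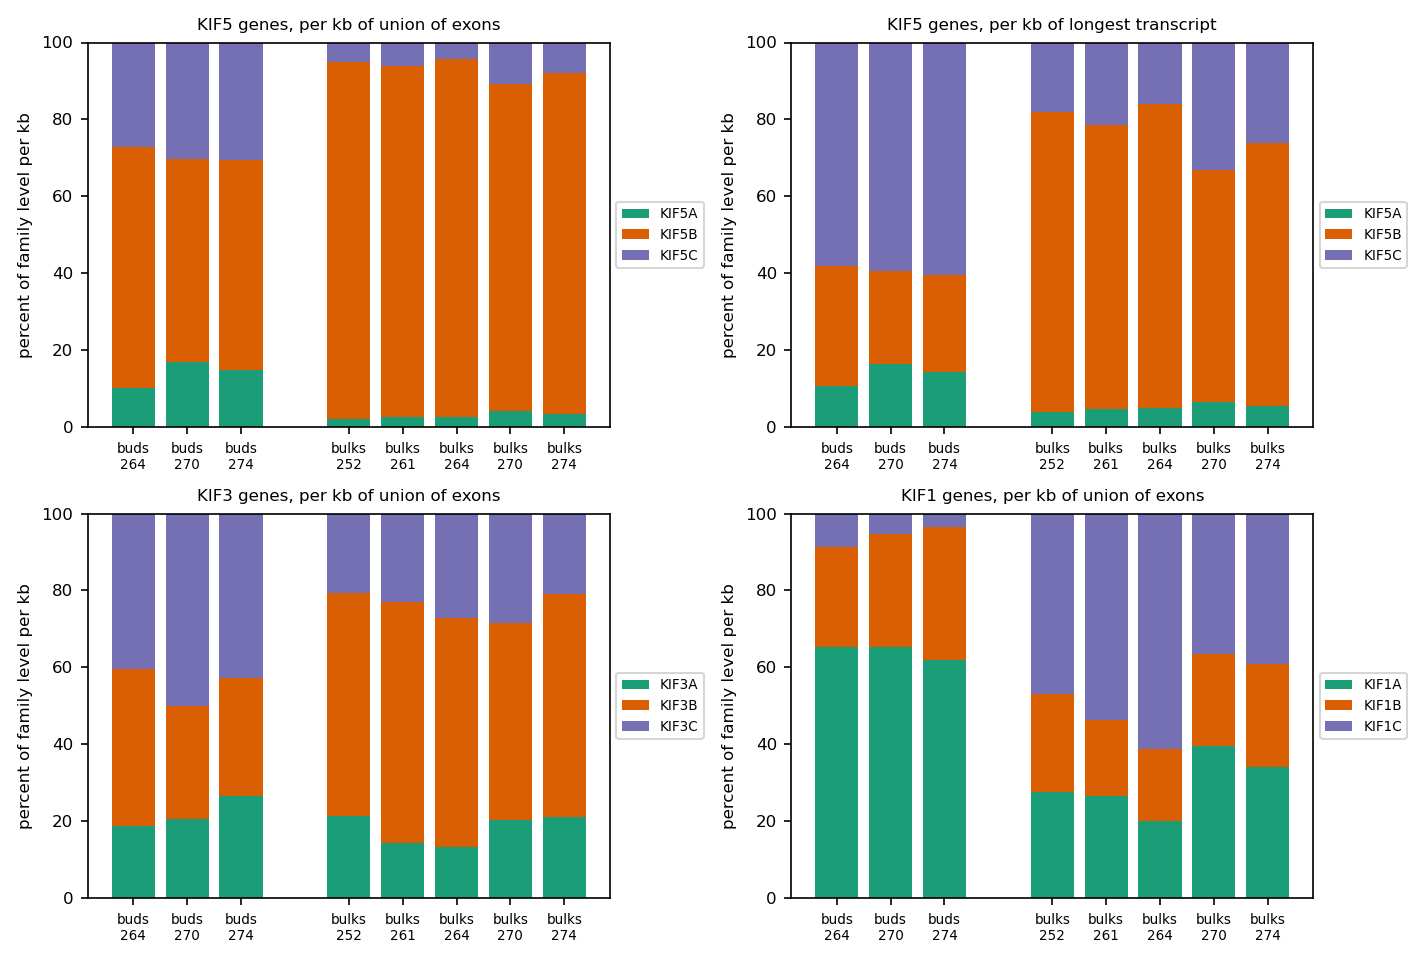
Share of each gene in the summed level per kb of its family in every library, with buds left of bulks: KIF5 genes per kb of exon (top left) and per kb of the longest transcript (top right), KIF3 genes (bottom left) and KIF1 genes (bottom right) per kb of exon. KIF5C, KIF3C and KIF1A take a larger share in every bud than in any bulk, and KIF5B, KIF3B and KIF1C a smaller one.

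The 3 KIF3 genes of the kinesin-2 family rose, while KIF17, its other member here, did not pass the test. KIF3A and KIF3B form the motor of intraflagellar transport together with KIFAP3, and KIF3C pairs with KIF3A mainly in neurons. KIF3C stood at 209.5, 270.1 and 253 CPM in buds, against 44.3, 43.4, 48.9, 64.2 and 46.2 CPM in bulks, which is 2.30 ± 0.15 on the log2 scale (edgeR adjusted p = 1.16e-05). KIF3A stood at 105, 120.0 and 168 CPM in buds, against 48.8, 28.8, 25.7, 49.2 and 50.2 CPM in bulks, or 1.69 ± 0.24 on the log2 scale (edgeR adjusted p = 0.000282). KIF3B stood at 201, 151 and 174 CPM in buds, against 118, 112, 103, 110.3 and 123 CPM in bulks, and rose least, by 0.63 ± 0.12 on the log2 scale (edgeR adjusted p = 0.00159). In none of the 3 genes did the groups overlap. Per kb of exon, KIF3C stood at 0.996, 1.71 and 1.38 times the level of KIF3B in buds, against 0.358 to 0.556 times in bulks. KIFAP3, the subunit that links these motors to cargo, rose by 1.82 ± 0.20 (edgeR adjusted p = 5.69e-05).

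Genes of the KIF1 family, monomeric or dimeric vesicle motors, went both ways. KIF1A, a neuronal motor for dense core vesicles and synaptic vesicle precursors (chromosome 2, 240713761 to 240824293, GRCh38), stood at 741, 756 and 718 CPM in buds, against 188, 196, 184, 299.8 and 216 CPM in bulks. Its log2 fold change was 1.77 ± 0.16 (edgeR adjusted p = 2.53e-05). KIF1B, which carries mitochondria and synaptic vesicle precursors, stood at 313, 359 and 423 CPM in buds, against 183, 154, 182, 189 and 178 CPM in bulks (1.04 ± 0.13, edgeR adjusted p = 9.69e-05). KIF1C, a widely expressed motor of Golgi and secretory vesicles (chromosome 17, 4997950 to 5028401), instead stood at 46.8, 29.1 and 19.7 CPM in buds, against 153, 189, 270.3, 132 and 119 CPM in bulks. KIF1C was the transport kinesin with the largest fall, at -2.45 ± 0.34 (edgeR adjusted p = 0.00023), and its highest value was that of the bulk of flask 264, without which the log2 fold change was -2.23. Per kb of exon, KIF1C held a share of 3.55 to 8.59% of the KIF1 level in buds, against 36.5 to 61.3% in bulks. The share of KIF1A was 61.9 to 65.4% in buds, against 20 to 39.7% in bulks.

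The related endosome and membrane motors were lower or did not pass. KIF13B, a motor for membrane proteins and signalling complexes, averaged 56.3 ± 7.41 CPM in buds and 84.7 ± 9.96 CPM in bulks, and its log2 fold change was -0.59 ± 0.14 (edgeR adjusted p = 0.00537). Under a fit with flask as a block, which called 19.5% of all genes higher and 20.3% lower in buds, the edgeR adjusted p of KIF13B was 0.0557. KIF13A, which carries recycling endosomes, had -0.40 ± 0.20 (edgeR adjusted p = 0.127) and under the block -0.42 (edgeR adjusted p = 0.0491). KIF16B, a motor of early endosomes, had -0.45 ± 0.19 (edgeR adjusted p = 0.0716), and the adjusted p was 0.0482 without the bulk of flask 261 and 0.0416 without that of flask 264. KIF17, known for dendritic and ciliary transport, stood at 2.83, 3.27 and 2.57 CPM in buds, against 3.70, 3.59, 3.79, 4.21 and 3.31 CPM in bulks. Every bud of KIF17 lay below every bulk, but the test did not pass (-0.36 ± 0.23, edgeR adjusted p = 0.223). Counts of KIF17 were low, at 21 to 46 per library.

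Of the remaining transport kinesins, both KIF21 genes rose. KIF21B, a neuronal motor that also restrains microtubule growth, stood at 181, 275 and 281 CPM in buds, against 64.6, 61.9, 65.9, 98.2 and 84.9 CPM in bulks (1.71 ± 0.19, edgeR adjusted p = 6.52e-05). KIF21A, its broadly expressed relative, stood at 172, 222 and 248 CPM in buds, against 115, 94.7, 96.7, 102 and 107 CPM in bulks (1.06 ± 0.13, edgeR adjusted p = 0.000125). Buds lay above bulks in both genes. KIFC3, a minus-end motor found at cell junctions of epithelium, averaged 38.4 ± 1.73 CPM in buds and 18.2 ± 7.80 CPM in bulks, and its log2 fold change was 1.08 ± 0.27 (edgeR adjusted p = 0.00806). The bulk of flask 264, at 30.8 CPM, was nearest to the buds. KIFC2, a neuronal minus-end motor, stood at 15.5, 37.7 and 19.3 CPM in buds, against 14.8, 15, 21.3, 17.4 and 13.0 CPM in bulks, and did not pass (0.58 ± 0.27, edgeR adjusted p = 0.108). Without the bud of flask 264 it did, at 0.81 (edgeR adjusted p = 0.0335), without that of flask 270 it stood at 0.14, and without the bulk of flask 264 at 0.69 (edgeR adjusted p = 0.0625).

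Most cargo adaptors and light chains were higher in buds. Of 21 genes of this kind, 14 rose and 1, TRAK2, a mitochondrial adaptor, fell (-0.43 ± 0.12, edgeR adjusted p = 0.0144), and the median log2 fold change was 0.69. The call of TRAK2 was lost in 4 of 17 alternatives, with an edgeR adjusted p of 0.0619 without the bud of flask 264, 0.0673 with flask as a block, 0.0721 without an expression filter and 0.0816 with the 3 paired flasks alone. FEZ1, a kinesin adaptor in axons, had the largest rise, at 2.80 ± 0.56 (edgeR adjusted p = 0.002), and was low throughout, with 4.02 ± 2.36 CPM in buds and 0.568 ± 0.399 CPM in bulks. MAPK8IP2, a scaffold that binds kinesin light chains, rose by 2.39 ± 0.16 (edgeR adjusted p = 1.16e-05). Of dynein and dynactin, the motor complex that runs the opposite way, 13 of 20 genes rose and 1 fell, and the median was 0.52. For both lists, the shares over all genes tested were 23.4% higher and 23.8% lower. DYNC1I1, the neuronal dynein intermediate chain, rose by 1.73 ± 0.44 (edgeR adjusted p = 0.00759, 0.0501 with the 3 paired flasks alone, and a log2 fold change of 1.48 without the bulk of flask 264) and DYNLRB1, a light chain, by 0.81 ± 0.21 (edgeR adjusted p = 0.00999). The 1 gene that fell was NDE1, a dynein regulator known for its part in mitosis, at -1.53 ± 0.20 (edgeR adjusted p = 0.00015).

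All markers of neurons and most of those of endocrine cells were higher in the same buds. All 10 neuron markers rose, and their summed level was 2581 to 3876 CPM in buds and 473 to 822 CPM in bulks, with none at 0. Of 9 endocrine markers, 6 rose (4 with flask as a block) and none fell, with a summed level of 11939.6 to 22951 CPM in buds and 2163 to 8774 CPM in bulks. CHGA and SST had the highest bud means in that sum, 7889.8 and 5733 CPM. INS (0.69 ± 0.51, edgeR adjusted p = 0.292), GCG (-0.47 ± 0.51, edgeR adjusted p = 0.48) and NEUROD1 (0.11 ± 0.42, edgeR adjusted p = 0.853) did not pass. Endocrine cells express many of the neuron markers. Of 7 epithelial progenitor markers, 6 fell, the summed level being 1284 to 1817 CPM in buds and 2839.7 to 3769 CPM in bulks. Markers of glia and neural crest summed to 2.16 to 3.18 CPM in buds and 2.13 to 4.28 CPM in bulks, 4 of the 5 being below the expression filter, SOX10 with at most 1 count in any library. Of 6 mesenchyme markers 1 rose and 1 fell (2 and 2 with flask as a block), with summed levels of 15.1 to 83.6 CPM in buds and 15.5 to 64.5 CPM in bulks. Among all genes tested, 23.4% rose and 23.8% fell, or 19.5% and 20.3% with flask as a block. The part of these cell types in the transport kinesin values was not tested.

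For the transport kinesins the spread among bulks was close to that of all genes. The ratio of the highest to the lowest bulk had a median of 1.59 over these kinesins and 1.6 over all genes tested. This median was higher over the tested mitotic kinesins, at 1.79, and over the tested other kinesins, at 1.96. The bulk of flask 270 held the highest bulk value for 6 of the 11 transport kinesins that rose (KIF1A, KIF1B, KIF3C, KIF5A, KIF5C and KIF21B), and the bulk of flask 264 or 261 held the lowest for all 11. Over the bulks, KIF5C ranged 2.90-fold and KIF1B 1.23-fold. The bulk of flask 270 was also the highest bulk for the summed neuron markers, at 822 CPM, and for the summed endocrine markers, at 8774 CPM.

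Of the kinesins tied to cilia, centrioles and other tasks, most showed no difference past the threshold. KIF26A, an atypical kinesin that binds microtubules without walking, was the 1 that rose, at 25.8, 40.2 and 43.0 CPM in buds, against 13.6, 15.1, 16.3, 15 and 14.4 CPM in bulks (1.29 ± 0.17, edgeR adjusted p = 0.000184). Its relative KIF26B had 0.42 ± 0.21 (edgeR adjusted p = 0.126), and passed at 0.57 without the bulk of flask 264 (edgeR adjusted p = 0.027). KIF24, a centriole kinesin that keeps cilia from forming in cycling cells, averaged 4.88 ± 0.329 CPM in buds and 11.9 ± 2.28 CPM in bulks (-1.29 ± 0.21, edgeR adjusted p = 0.000642). KIF7, which sits at the tip of the primary cilium and regulates Hedgehog signalling, averaged 9.22 ± 1.38 CPM in buds and 19.8 ± 6.30 CPM in bulks (-1.10 ± 0.26, edgeR adjusted p = 0.00498). Counts of KIF7 could include reads of TICRR, a replication gene on the opposite strand that covers 10.8% of its exon length.

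KIF2A, a microtubule depolymerase that works on spindles and in neurites, averaged 80.9 ± 18.4 CPM in buds and 68.2 ± 8.89 CPM in bulks (0.25 ± 0.16, edgeR adjusted p = 0.236). KIF6, KIF9, KIF12, KIF19 and KIF27, most of them known from cilia, had log2 fold changes of -0.30 to 0.38 and edgeR adjusted p of 0.395 to 0.99. KIF12, an epithelial kinesin, was spread widely in both groups, at 65.4, 27.9 and 20.9 CPM in buds, against 28.0, 38.8, 57.0, 36.6 and 28.2 CPM in bulks, and its 2 highest libraries were the bud and the bulk of flask 264. KIF25 had no counts in any library.

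Summed over members and scaled by exon length, the mitotic kinesins stood at 10.6, 9.99 and 10.5 CPM per kb in buds, against 54.9, 48.0, 38.6, 51.3 and 56.9 CPM per kb in bulks. The transport kinesins stood at 316, 351 and 377 CPM per kb in buds, against 186, 166, 177, 187 and 175 CPM per kb in bulks. Mitotic kinesins thus made up 2.59 ± 0.187% of the summed kinesin level in buds and 18.4 ± 2.29% in bulks (n = 3 and 5, SD). The other kinesins overlapped between the groups, at 42.2 ± 7.51 CPM per kb in buds and 42.8 ± 4.51 CPM per kb in bulks. By exon length KIF5B was the leading kinesin in both groups, at 76.6 CPM per kb in buds and 60.7 in bulks, and KIF1C was the second in bulks, at 20.1 CPM per kb, against 3.72 CPM per kb and rank 18 of the 42 in buds. KIF5A held rank 8 in buds and rank 31 in bulks. Per kb of the longest transcript, KIF5C instead led in buds at 172 CPM per kb, ahead of KIF1A at 80.9 and KIF5B at 76.6. By that length KIF5B still led in bulks and KIF1C held rank 3 there. KIF5A then held rank 5 in buds and rank 26 in bulks.

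**Figure D5:**
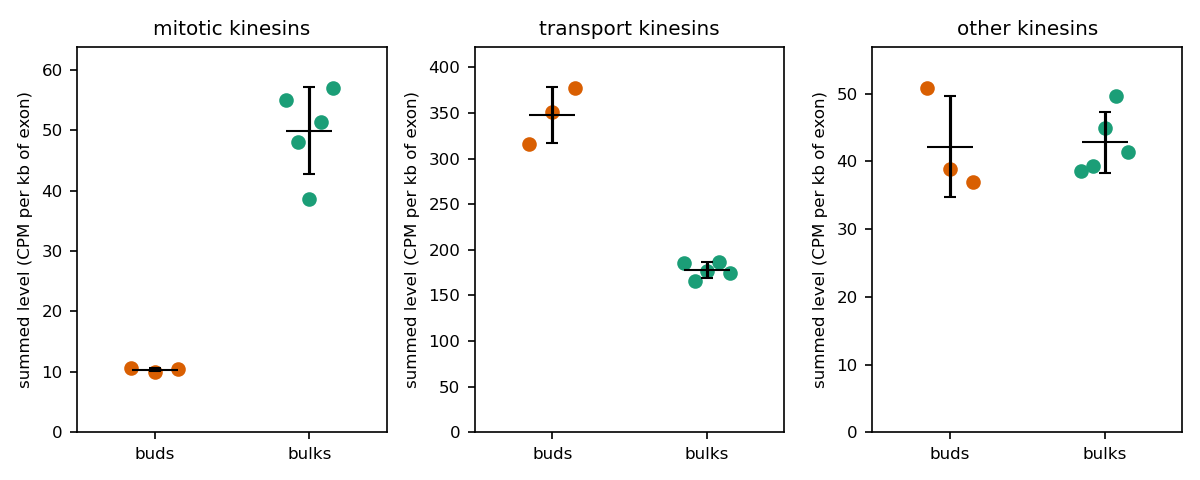
Summed level of mitotic, transport and remaining kinesins in CPM per kb of exon, 1 point per library, with buds left of bulks; lines and bars are group means and SD (n = 3 and 5). Mitotic kinesins lie at 9.99 to 10.6 in buds and 38.6 to 56.9 in bulks, transport kinesins at 316 to 377 in buds and 166 to 187 in bulks, and the remaining kinesins overlap.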

How the data were processed

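The authors deposited expected counts per Ensembl gene for 8 libraries. The submitters' processing notes name STAR, RSEM and the build GRCh38, without versions. No source used here gives the annotation release or the use of strand. RSEM estimates how ambiguous reads split between genes, and reads of opposite-strand genes may be mixed. By share of exon length, the largest overlaps with a single gene were those of KIF2A (with DIMT1), KIFC2 (with FOXH1), KIF9, KIFC1 and KIF7. The gene overlapping KIFC1 is a pseudogene with at most 4 counts in any library. Some shorter overlaps are with opposite-strand genes of higher maximum counts. KIF20A, with at most 232 counts in any library, overlaps BRD8 (up to 1308 counts, 3.4% of the exon length of KIF20A) and CDC23 (up to 599). KIF4A overlaps PDZD11 (up to 479) and KIF24 overlaps UBAP1 (up to 440). Of the gene identifiers, 98.6% matched GENCODE release 44.

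Expected counts were rounded, filtered (edgeR 4.0.16, R 4.3.3, minimum count 10, minimum total 15), TMM-scaled and compared with the quasi-likelihood test without covariates, adjusted over 16641 genes. The test was checked on simulated counts. CPM use TMM-scaled sizes. Depth was 6083973 to 12508039 counts, and limits on counts of 0 cover counting error only. No pair of libraries in a group matched within sampling noise.

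Flask numbers come from the labels. Deviations of bud and bulk from their group means correlated at 0.123, 0.134 and 0.295 within flasks 264, 270 and 274 and at -0.245 to 0.194 across flasks. Only the value of flask 274 lay above the range across flasks, so these correlations do not settle the pairing. Samples were taken as paired from the labels alone, and the main test did not use the pairing. Alternatives were DESeq2 1.42.0, limma-voom (limma 3.58.1), other scalings and filters, flask as a block, flasks with both samples alone, narrower lists, another gene length and leaving out each library. Kinesin members, lists and motifs were chosen with earlier results of these data known. All members are accounted for; those that passed the test, and all KIF1, KIF3, KIF5, KIF13, KIF21 and KIFC genes, are given with levels and test, the rest by range and count, and partner lists by counts with the 2 largest called changes in each direction.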

Additional observations from a re-analysis of the deposited data

Results flagged for a closer look

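Of 42 values examined over the 5 bulks, 2 had 1 bulk apart: its distance to the nearest bulk exceeded 0.71 of the whole range. About 1 group in 20 shows this by chance. KIF1A stood at 299.8 CPM in the bulk of flask 270 and at 184 to 216 CPM in the other bulks. KIF3C stood at 64.2 CPM in the same bulk and at 43.4 to 48.9 CPM in the others. In both genes the bulk of flask 270 still lay below every bud. Without it, the log2 fold change of buds over bulks was 1.91 for KIF1A and 2.41 for KIF3C.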

How the results depend on the processing

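The 12 falls among mitotic kinesins passed in all 17 alternatives, and the count of risen transport kinesins was 10 or 11 in each of them, KIF5B being the gene lost and KIFC2 gained without bud 264. Of 28 called kinesins, 26 kept their call and direction in all 17 alternatives, the exceptions being KIF5B and KIF13B. KIF5B did not pass with upper-quartile factors (0.29, edgeR adjusted p = 0.066) or without an expression filter (0.36, 0.0795), and had 0.27 to 0.43 when 1 library was left out. With flask as a replicate block KIF13B had -0.51 (edgeR adjusted p = 0.0557) and KIF13A -0.42 (0.0491), and the block changed no other call among kinesins; over all genes it called 6621, against 7861. Of the genes that did not pass, signs turned for KIF12, at -0.04 with upper-quartile factors, -0.21 under the block, -0.08 with the 3 paired flasks alone, -0.15 with limma-voom and -0.62 to 0.31 when 1 library was left out. KIF9 had -0.04, -0.03 and -0.03 under the first 3 of these settings and -0.04 to 0.09 with 1 library left out, and KIF27 had -0.17 to 0.08 with 1 library left out. Transport genes of the kinesin-1, kinesin-2 and kinesin-3 families alone had a median of 0.63. With the longest transcript as length, mitotic kinesins made up 2.0% of the kinesin level in buds, and KIF5C 59.3% of the KIF5 level in buds and 23.0% in bulks. The lowest mitotic counts, 11 in KIF20A, limit precision in buds.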
